A study of Mus musculus with 8 samples.

Results

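The genes of the Hmga2, Lin28 and let-7 axis were followed in mouse epiblast-like cells (EpiLCs) with and without Tet1, which encodes a DNA dioxygenase that oxidizes 5-methylcytosine. The 8 genes are Hmga2, Hmga1, Lin28a, Lin28b, Igf2bp1, Igf2bp2, Igf2bp3 and Trim71, and they were found by symbol among the 54281 genes of the tables. All 8 passed the filter on low counts, which left 17272 genes tested. The set was chosen by the level of Hmga2 in Tet1 KO against WT lines, which was already known to be higher. That difference is therefore given as a description with no test, and what follows from it is which of the other genes moved as well.

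There were 4 lines of the genotype Tet1 KO, named KO1, KO9, KO15 and KO25, set against 4 WT lines, named WT7, WT12, WT17 and WT34. The background is B6129S6F1 Tet1<tm1Koh>. The study's text describes 4 littermate pairs of male WT and KO ESC lines, derived from blastocysts. Of the lines here it names KO1, KO15, WT7 and WT34. KO9, KO25, WT12 and WT17 are not named there, so it does not give their sex or pairing. Each line was treated as a separate derivation, with 1 library per line. The litter of each line is not given in the sources used here. KO lines carry the Tet1<tm1Koh> allele on both chromosomes and WT lines carry none. All were grown on feeders earlier, passaged in 2iL on gelatin, and then converted to EpiLCs for 2 days in N2B27 with 1% KOSR and 12 ng/ml bFGF, without Activin A. The columns of the deposited tables carry a suffix that neither the labels nor the methods explain. Suffix b2 marks KO15 and KO25 and, of the WT lines, WT12 and WT34, and suffix b1 marks the others. The library titled WT12 has the cell line label WT9 and the one titled WT17 has the label WT12, and the titles were used. p-values measure the spread between lines, which mixes line, culture and library.

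let-7 is a family of microRNAs that become abundant as cells differentiate and that silence mRNAs carrying a match to their seed, the bases near the 5′ end of the microRNA. LIN28A and LIN28B bind let-7 precursors and block their maturation, so pluripotent cells hold little mature let-7 while LIN28 is present. HMGA2, an AT-hook protein that bends DNA and shapes chromatin, is encoded by a classical let-7 target, and the mRNAs of the IGF2BP RNA-binding proteins, of TRIM71 and of both LIN28 proteins are also let-7 targets. Lin28a, Trim71 and Hmga2 are all known from the early embryo and from the exit from naive pluripotency.

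The family is shown here because its seed is what the members have in common. The mature sequences are those of RefSeq (GRCm38.p6), written 5′ to 3′, and capitals mark the seed, bases 2 to 8.
mmu-let-7a-5p: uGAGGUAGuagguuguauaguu
mmu-let-7b-5p: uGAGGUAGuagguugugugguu
mmu-let-7d-5p: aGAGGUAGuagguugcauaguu
mmu-let-7e-5p: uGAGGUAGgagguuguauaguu
mmu-let-7g-5p: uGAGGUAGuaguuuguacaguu
mmu-miR-98-5p: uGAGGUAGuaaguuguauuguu
mmu-let-7j: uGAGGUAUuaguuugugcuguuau
Of the 11 mature family members in the table, 10 share the seed GAGGUAG, and let-7j alone has another one, GAGGUAU. The seed GAGGUAG pairs with CTACCTC in the transcript strand. Of the 12 hairpins of Mirlet7 genes and Mir98 in that table, 9 (75%) contain GGAG, the motif to which LIN28 binds. Of all 1005 hairpins 447 (44.5%) do, read on the hairpin strand. The genes of let-7j and let-7k, Mir7j and Mir7k, are not among the 12. GGAG was sought anywhere in the hairpin, so a hit is not a shown LIN28 site, and mature let-7e itself holds it.

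All 8 members had at least 1 CTACCTC in their longest annotated 3′ UTR. In GENCODE M21 (mm10), Hmga2 (chr10:120361275-120476469, minus strand) had 4 in 3014 bases, or 1.33 per kb. Lin28b had 4 in 4445 bases, Trim71 had 4 in 5512 bases and Igf2bp1 had 4 in 6337 bases. Lin28a had 2 in 2775 bases, and Igf2bp2, Igf2bp3 and Hmga1 had 1 each. Of the 13705 genes tested that have a 3′ UTR in this annotation, 10.8% held at least 1 match, 1.38% at least 2, and 0.0803% at least 4. These shares are not matched for length. Over those genes the median 3′ UTR was 1192 bases, with 0.0732 matches per kb. Matches were searched on the transcript strand only, and a match is a run of letters, not a shown site. The first 4 windows below are those of Hmga2, the next 4 those of Trim71, with as many matches but another behaviour in the data, and 1 window is given for each of the other genes. Capitals mark the match to the seed. All windows lie in 3′ UTR exons and run 5′ to 3′ on the strand of the gene, which is minus except for Hmga1.
Hmga2, chr10:120364224-120364246: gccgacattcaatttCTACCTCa
Hmga2, chr10:120362987-120363009: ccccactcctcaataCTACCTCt
Hmga2, chr10:120362549-120362571: ctgatttgcaaggaaCTACCTCc
Hmga2, chr10:120361691-120361713: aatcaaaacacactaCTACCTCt
Trim71, chr9:114512472-114512494: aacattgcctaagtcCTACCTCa
Trim71, chr9:114512376-114512398: agtgataatttctatCTACCTCa
Trim71, chr9:114509047-114509069: tttagtatggattttCTACCTCa
Trim71, chr9:114509021-114509043: ttggcaaaaagttgtCTACCTCa
Lin28b, chr10:45381022-45381044: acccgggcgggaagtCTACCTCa
Lin28a, chr4:134005189-134005211: gcacagcctgttgaaCTACCTCa
Igf2bp1, chr11:95961778-95961800: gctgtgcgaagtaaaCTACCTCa
Igf2bp2, chr16:22059473-22059495: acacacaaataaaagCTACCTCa
Igf2bp3, chr6:49086787-49086809: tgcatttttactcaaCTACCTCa
Hmga1, chr17:27563277-27563299: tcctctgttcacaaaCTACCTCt
The match is followed by an A, which lengthens it to the stronger form of site, in all 4 matches of Trim71, in 3 of 4 of Igf2bp1, and in 1 of 4 of Hmga2 and of Lin28b.

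The libraries held between 13916576 and 20917851 estimated counts in KO lines and between 14771499 and 23680839 in WT lines, and pairs of libraries correlated at 0.967 to 0.991 across genes on log2(CPM + 1). Tet1 was at 38.4 to 54.2 CPM (counts scaled to library size) in KO lines and at 559 to 851 CPM in WT lines. In TPM (reads per transcript length, scaled to a common total per library) it had 21.6 to 32.0 in KO lines and 60.5 to 91.5 in WT lines. Tet1 RNA was thus lower but not absent in KO lines, and the genotype labels hold. The difference was larger in CPM than in TPM, so how much Tet1 RNA was left depends on the measure. The pluripotency gene Pou5f1 had 436 to 477 TPM in KO lines and 412 to 512 TPM in WT lines, and the primed-state genes Dnmt3b, Otx2 and Fgf5 were present in all 8 lines. The naive gene Zfp42 was present too, at 9.66 to 16.0 TPM in KO lines and 8.29 to 19.0 TPM in WT lines. Fgf5 had 8.06 to 14.8 and 7.48 to 18.8 TPM. The 14 naive genes summed to 393 to 470 TPM in KO lines and 331 to 422 TPM in WT lines. Of 12 fibroblast genes, listed because of the earlier feeder culture, 9 averaged under 1 TPM over the lines, Postn and S100a4 were at 0 throughout, and the list summed to 76.8 to 114 TPM in KO lines and 83.0 to 107 TPM in WT lines. The 11 extraembryonic endoderm genes summed to 2.20 to 4.55 TPM in KO lines and 2.78 to 4.70 TPM in WT lines, with Ttr at 0. The naive, fibroblast and endoderm sums overlapped between the groups. Single low genes of the endoderm list did not in CPM. Sox7 had 0.727 to 1.46 CPM in KO lines and 0.188 to 0.425 CPM in WT lines (log2 fold change 2.03, edgeR adjusted p = 0.308). It was 1 of 7 endoderm genes tested with every KO line above every WT line, against 2.39% of all genes. Sox17, too low to be tested, had 0.328 to 0.467 CPM in KO lines and 0.0471 to 0.220 CPM in WT lines. In TPM its groups overlapped, at 0.0622 to 0.128 in KO lines and 0.0327 to 0.119 in WT lines. Of the state and lineage markers, Nanog (26.9 to 37.7 CPM in KO lines, 39.0 to 64.1 CPM in WT lines, log2 fold change −0.55) and the neuronal tubulin gene Tubb3 (15.9 to 22.8 CPM in KO lines, 25.5 to 29.5 CPM in WT lines, −0.49) had every KO line below all WT lines. The same held for 1.8% of all genes tested. Their lists were mixed, with 4 of 7 core pluripotency genes and 3 of 6 neural genes tested positive. The neural gene Lhx2 was at 1.13 with overlapping groups. The primitive streak genes T (1.39) and Eomes (1.12) had positive log2 fold changes with overlapping groups in CPM. In TPM the groups of T did not overlap, at 0.22 to 0.625 in KO lines and 0.0331 to 0.162 in WT lines. None of Sox7, Nanog, Tubb3, Lhx2, T and Eomes passed adjustment (edgeR adjusted p 0.308 to 0.907), and their part in the values of Hmga2 was not tested.

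Per transcript length, the members spanned a wide range in these cells, and their order was set mostly by the gene and not by the genotype. Hmga1, the AT-hook relative of Hmga2, was by far the most abundant at 443 ± 28.7 TPM (SD, n = 8 lines), above 98.4% of the genes tested. Igf2bp1 followed at 102 ± 9.01 TPM and Lin28a at 87.4 ± 11.9 TPM, and the ranges of these neighbours overlapped, with Igf2bp1 the higher in 7 of 8 lines. Igf2bp2 had 43.1 ± 7.35 TPM and stood apart from both its neighbours. Trim71 at 19.6 ± 5.15 TPM and Igf2bp3 at 18.9 ± 1.33 TPM overlapped, with Trim71 the higher in 4 of 8 lines. Those were the lines of suffix b2, in both genotypes. Hmga2 at 7.40 ± 2.50 TPM and Lin28b at 6.24 ± 1.08 TPM came last and overlapped too. Hmga2 was above Lin28b in 4 of 8 lines, which were the KO lines, and below it in all WT lines. This order holds the level of Hmga2 that chose the set, so nothing is read from it.

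**Figure D1:**
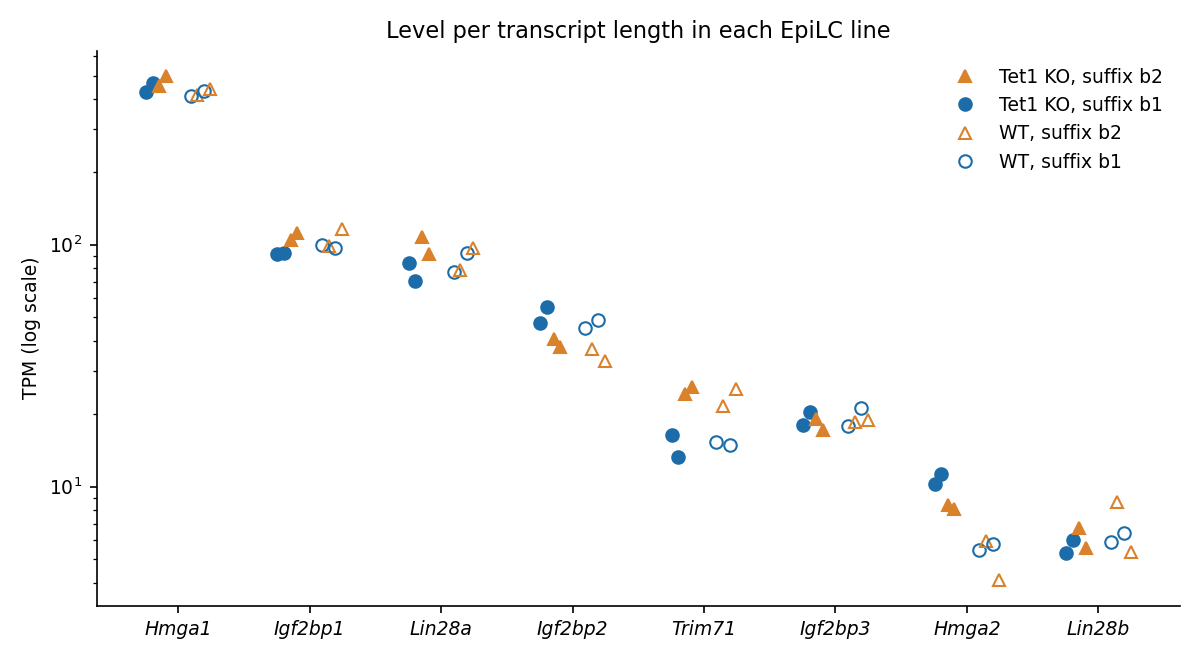
TPM (log axis) of each member in each EpiLC line, with Tet1 KO lines (filled) left of WT lines (open) and the column suffix as marker shape and colour. Hmga1 lies at 411 to 498 TPM over all 8 lines, and Hmga2 (8.08 to 11.3 TPM in KO lines, 4.09 to 5.95 TPM in WT lines) is the 1 member whose KO and WT points do not overlap.

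Paralogs were therefore unequally used. Lin28a was 11.8 to 16.4 times Lin28b in TPM in KO lines and 9.14 to 18.0 times in WT lines, with no separation of the groups. Hmga1 was 41.2 to 61.6 times Hmga2 in KO lines and 69.9 to 107 times in WT lines, so these ranges did not overlap. This ratio holds the level of Hmga2 that chose the set, so nothing is read from its separation. Igf2bp1 was 1.66 to 2.97 times Igf2bp2 in KO lines and 1.98 to 3.52 times in WT lines, and these overlapped.

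Hmga2 had 82.1 (KO1), 93.1 (KO9), 67.6 (KO15) and 64.8 CPM (KO25) in KO lines, against 45.0 (WT7), 45.9 (WT12), 44.4 (WT17) and 33.7 CPM (WT34) in WT lines. The groups did not overlap, and the lowest line of all was WT34. The mean was 76.9 ± 13.2 CPM in KO lines and 42.3 ± 5.74 CPM in WT lines (SD, n = 4 each). The log2 fold change was 0.86 (SE 0.15, 95% interval 0.54 to 1.19), which is 1.82-fold. Within suffix b1 the log2 fold change was 0.97 and within b2 it was 0.74. In bulk libraries, more cells that express the gene and more RNA per cell cannot be told apart. The counts behind these values were 888 to 1857 reads in KO lines and 476 to 1101 reads in WT lines, so counting error was small beside the spread between lines. The values are those that chose the set.

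The average length of Hmga2 transcript to which reads were assigned did not shift between the groups. It was taken as counts per TPM, scaled to the median gene of the library. This relative length was 2.25 ± 0.0304 in KO lines and 2.25 ± 0.0296 in WT lines (SD, n = 4 each), a ratio of 0.999. For the other members the ratio of KO to WT lay between 0.972 (Lin28b) and 1.02 (Lin28a, Igf2bp2).

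Hmga1, which encodes the AT-hook protein closest to HMGA2, had 831 CPM in KO1, 923 in KO9, 850 in KO15 and 859 in KO25, against 853 CPM in WT7, 656 in WT12, 803 in WT17 and 856 in WT34. The groups overlapped, and WT12 was the lowest. The log2 fold change was 0.13 (SE 0.10, 95% interval −0.09 to 0.34).

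Of the let-7 inhibitors, Lin28a had 556 CPM in KO1, 555 in KO9, 729 in KO15 and 649 in KO25, against 545 CPM in WT7, 550 in WT12, 585 in WT17 and 663 in WT34. Its log2 fold change was 0.09 (SE 0.11, 95% interval −0.16 to 0.33), and the groups overlapped. Lin28b had 53.3, 60.0, 73.8 and 54.6 CPM in the KO lines, against 62.3, 85.2, 61.7 and 60.0 CPM in the WT lines, in the same order. WT12 was the highest line and the groups overlapped. Its log2 fold change was −0.16 (SE 0.15, 95% interval −0.48 to 0.17), and it was the 1 member besides Igf2bp1 with a negative value.

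The IGF2BP proteins bind mRNAs and protect or localize them. Igf2bp2 had 231 CPM in KO1, 241 in KO9, 200 in KO15 and 180 in KO25, against 212 CPM in WT7, 164 in WT12, 201 in WT17 and 167 in WT34. The groups overlapped over all lines, but within each suffix both KO lines were above both WT lines. The log2 fold change was 0.20 (SE 0.12, 95% interval −0.08 to 0.47), and 0.20 (SE 0.06, 95% interval 0.07 to 0.32) with the suffix as a block, where its adjusted p over all genes (edgeR) was 0.236. Igf2bp1 had 562 to 783 CPM in KO lines and 595 to 811 CPM in WT lines. Its log2 fold change was −0.01 (95% interval −0.31 to 0.29). Igf2bp3 had 150 to 177 CPM in KO lines and 161 to 170 CPM in WT lines. Its log2 fold change was 0.00 (95% interval −0.16 to 0.16), the narrowest interval of the set.

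Trim71, an RNA-binding repressor of the TRIM-NHL family that is itself held down by let-7, had 368 CPM in KO1, 309 in KO9, 545 in KO15 and 566 in KO25, against 354 CPM in WT7, 460 in WT12, 324 in WT17 and 576 in WT34. The lines of suffix b2 were high in both genotypes and the groups overlapped. The log2 fold change was 0.06 with a wide interval (SE 0.23, 95% interval −0.46 to 0.59).

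**Figure D2:**
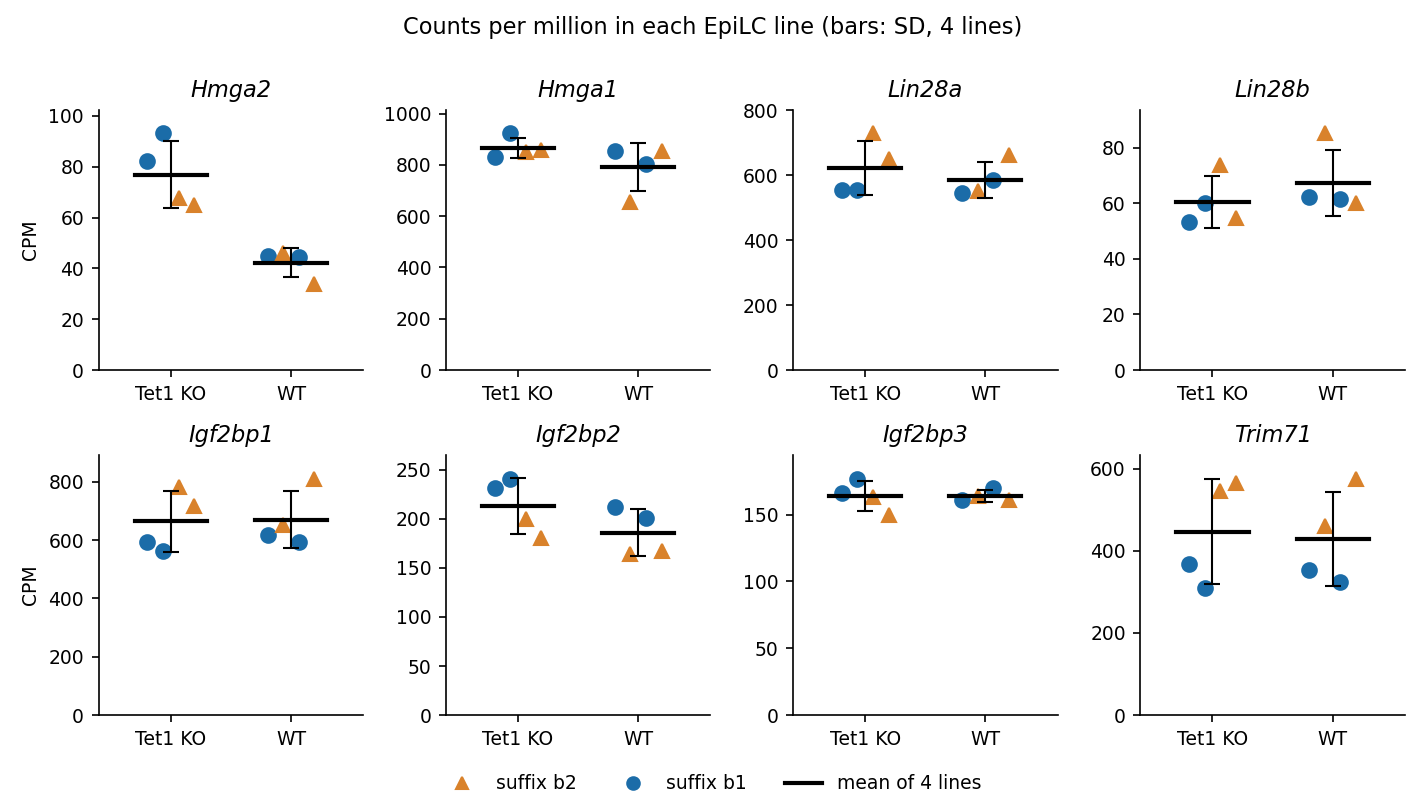
CPM of the 8 members in the 4 Tet1 KO lines (left) and the 4 WT lines (right) of each panel, with the mean as a line, the SD as a bar and the column suffix as marker. Hmga2 alone has all KO lines (64.8 to 93.1 CPM) above all WT lines (33.7 to 45.9 CPM), and in Trim71 the b2 lines (460 to 576 CPM) are above the b1 lines (309 to 368 CPM).

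Of the 8 members, 1 (Hmga2) had every KO line above every WT line, against 2.39% of all genes tested, and 0 had every KO line below every WT line, against 1.80%. edgeR at an adjusted p under 0.05 called 0 of the 8 members, against 0.0405% of all genes, and 1 member, Hmga2, was at an unadjusted p under 0.05, against 5.62% of all genes. It called 1, Hmga2, with the suffix as a block (0.162% of all genes), and DESeq2 called the same gene (0.614% of all genes). Since this contrast chose the set, nothing is read from these counts. 6 of the 8 had a positive log2 fold change (Igf2bp3 by less than the rounding), with a median of 0.07, and 49.0% of all genes did, with a median of −0.00.

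**Figure D3:**
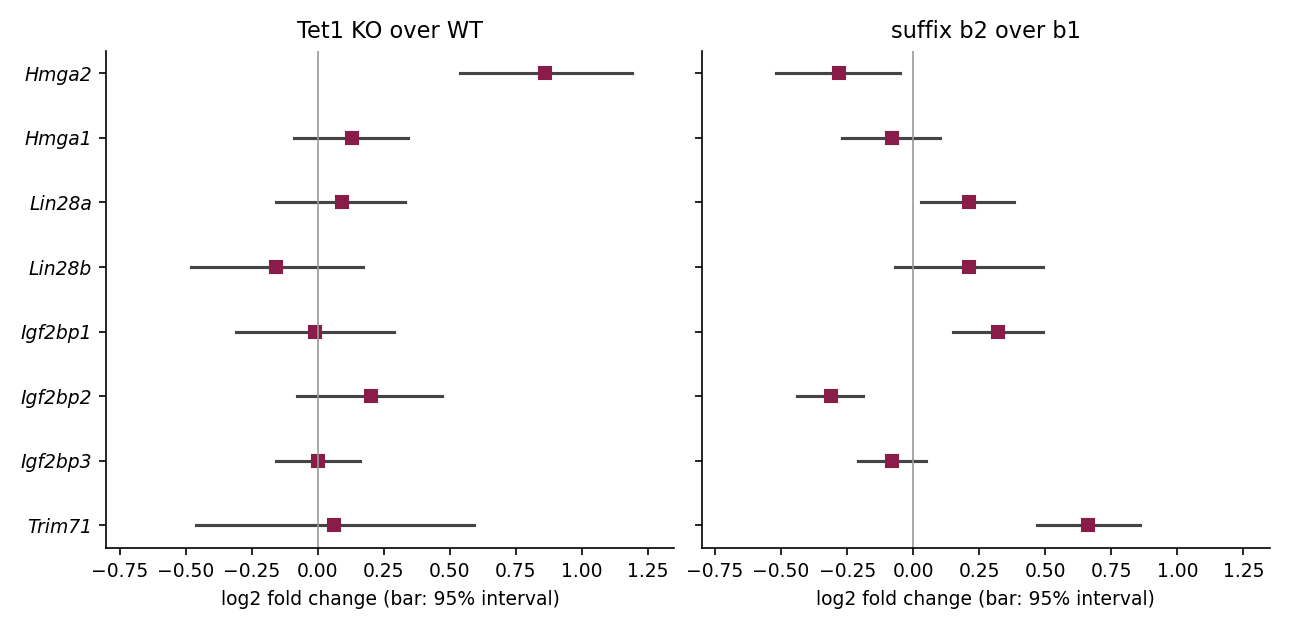
log2 fold change with 95% interval from edgeR for each member, Tet1 KO over WT on the left and suffix b2 over b1 on the right. On the left Hmga2, at 0.86, is the value that chose the set and the others lie between −0.16 and 0.20, and on the right Trim71 (0.66), Igf2bp1 (0.32) and Igf2bp2 (−0.31) passed adjustment.

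The other split of the lines, by column suffix, was not used to choose the members and could be tested. It moved different members. Trim71 was higher in b2 lines (460 to 576 CPM) than in b1 lines (309 to 368 CPM), with a log2 fold change of 0.66 (SE 0.09) and an adjusted p of 9.13e-04 (edgeR quasi-likelihood test with genotype in the model). Igf2bp1 was higher at 652 to 811 CPM in b2 lines, against 562 to 618 CPM in b1 lines, with a log2 fold change of 0.32 (SE 0.08) and an adjusted p of 0.0137. Igf2bp2 was lower at 164 to 200 CPM in b2 lines, against 201 to 241 CPM in b1 lines, with a log2 fold change of −0.31 (SE 0.06) and an adjusted p of 0.00421. In all 3 the b2 and b1 lines did not overlap, although the nearest lines of Igf2bp2 were KO15 at 200 and WT17 at 201 CPM. The call of Igf2bp1 was lost without KO9 (adjusted p = 0.0673) and by limma on log2(TPM + 1) (0.18, adjusted p = 0.136).

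These 3 of 8 members stand against 24.6% of all genes, since 2359 genes were called higher and 1894 lower in b2 lines. The suffix thus divided the libraries broadly, and what it stands for cannot be told from the labels. The other 5 members did not pass. Hmga2 had a log2 fold change of −0.28 (SE 0.10, adjusted p = 0.0751) and Lin28a of 0.21 (SE 0.08, adjusted p = 0.0863). Without WT12 both passed, at −0.42 (adjusted p = 0.00312) and 0.26 (adjusted p = 0.0106). Hmga2 also passed with no filter on low counts (−0.31, adjusted p = 0.0106) and with DESeq2 (−0.29, adjusted p = 0.0432), so in 3 of 14 alternatives. Lin28b was at 0.21 (SE 0.13, adjusted p = 0.261), Hmga1 at −0.08 and Igf2bp3 at −0.08.

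Whether the difference between KO and WT lines itself depended on the suffix was tested as an interaction. It was not detectable for any member. For Hmga2 the log2 fold change in b2 less that in b1 was −0.24 (SE 0.21, 95% interval −0.72 to 0.24, adjusted p = 1). Of all genes 0% were called by edgeR, and 227 were at an unadjusted p under 0.05, none of them a member.

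The question of whether other let-7 targets shared the higher level of Hmga2 was taken to a list of 35 further genes known as let-7 targets, of which 34 were tested (all but Acvr1c, with 1 read in all). None was called in either direction between KO and WT lines, against 0.0405% of all genes tested. Hmga2 was not called in this fit either, so the calls do not set it apart from the list. In the list 1 gene was at an unadjusted p under 0.05 (edgeR), against 5.62% of all genes. A positive log2 fold change was found in 18, against 49% of all genes, and the median was 0.02, against −0.00 for all genes. No gene of the list had every KO line above every WT line, against 2.39% of all genes. Ccnd2, a G1 cyclin gene with no CTACCTC in its longest annotated 3′ UTR, had the largest value. It had 10.7 CPM in KO1, 11.3 in KO9, 6.28 in KO15 and 19.7 in KO25, against 4.67 CPM in WT7, 9.38 in WT12, 5.32 in WT17 and 4.18 in WT34. KO25 was high, KO15 lay under WT12, and the log2 fold change of 1.01 did not pass (edgeR adjusted p = 0.791). The growth factor receptors Igf1r (0.27) and Insr (0.23) and the cell cycle kinase Cdk6 (0.26) came next and did not pass either. The MYC genes Myc and Mycn lay at 0.07 and 0.09.

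Between suffixes 13 of the 34 genes were called higher in b2 lines, against 13.7% of all genes, and 0 lower, against 11% of all genes. The median log2 fold change was 0.15, against 0.01 over all genes. Whether the list differs from other genes was not tested. Myc, the proto-oncogene, was at 2.67 (adjusted p = 1.47e-04), the matrix gene Thbs1 at 1.78 and Mycn at 1.5. Trim71 and Igf2bp1 were higher in the same lines, and Hmga2 and Igf2bp2 had negative values there.

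**Figure D4:**
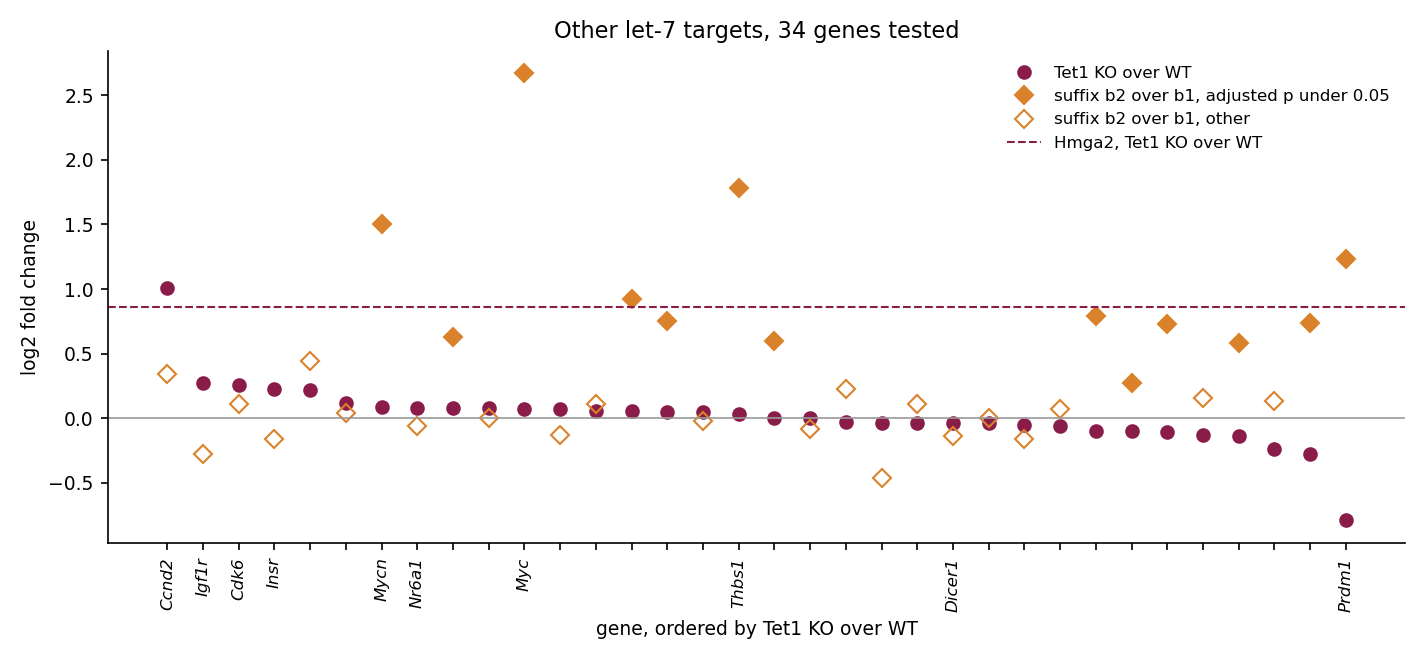
log2 fold change of the 34 other let-7 targets tested, Tet1 KO over WT (circles) and suffix b2 over b1 (diamonds, filled where the adjusted p is under 0.05), ordered by the first and with the genes of the text named on the axis. The circles lie close to 0 except for Ccnd2 (1.01) and Prdm1 (−0.79), and Hmga2 (0.86, dashed line) is above all of them but Ccnd2, while 13 diamonds are called, all above 0.

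Seed matches gave a second view of targets that rests on sequence and not on a list. Genes were sorted by the number of CTACCTC in the longest 3′ UTR. The 12226 genes with no match had a median log2 fold change between KO and WT lines of −0.00, the 1290 genes with 1 match −0.01, the 162 genes with 2 matches −0.02, and the 27 genes with 3 or more −0.01. In the last class 13 of 27 were positive, against 49.3% of all 13705 genes in these classes. In that class 0 were called, against 5 called higher and 2 lower in KO lines among the 13705. Hmga2, picked for its high value in this contrast, was at 0.86, and its place above the others of the class follows from that choice. Of the others the highest was Nhlrc3, at 0.27, with 24.4 CPM in KO lines and 20.2 CPM in WT lines. Nr6a1, a germ cell nuclear receptor gene with 8 matches, the most of any gene tested, was at 0.08. The lowest was Fignl2, at −0.76. The other members in this class were Trim71 (0.06), Igf2bp1 (−0.01) and Lin28b (−0.16).

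**Figure D5:**
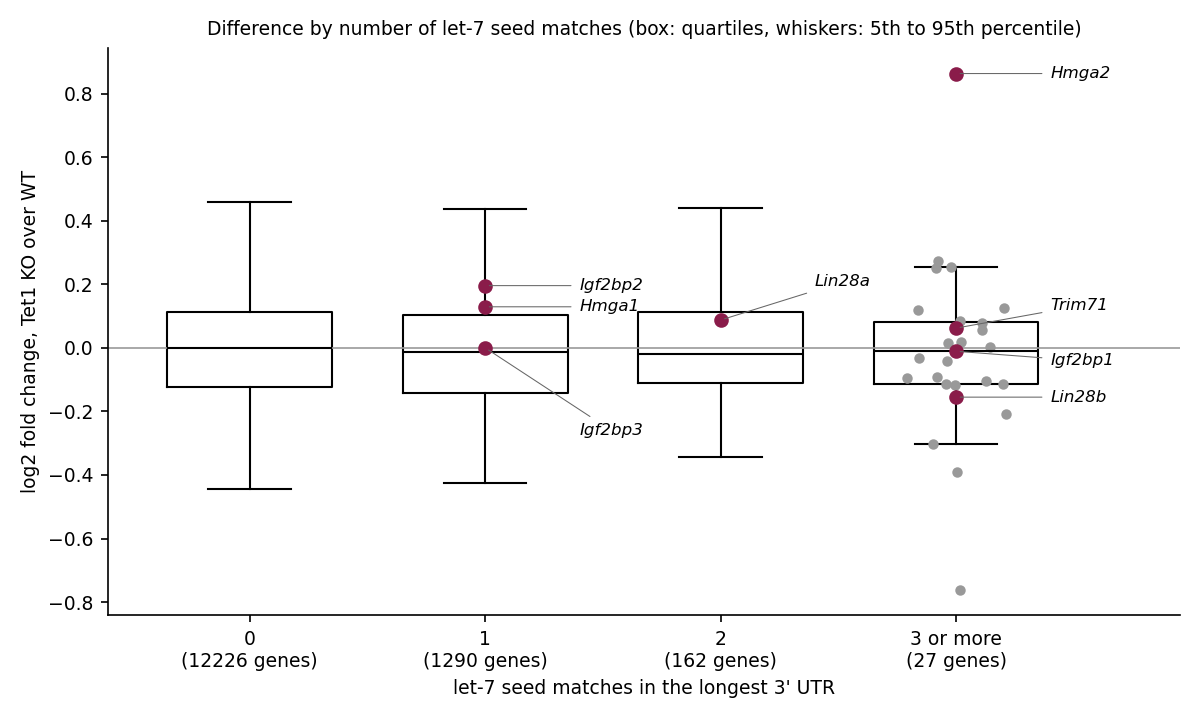
log2 fold change, Tet1 KO over WT, of the 13705 genes tested with an annotated 3′ UTR, by number of let-7 seed matches, with quartiles as boxes and the 5th to 95th percentile as whiskers. Members are marked by name and the other genes with 3 or more matches as grey points. The boxes are centred near 0 in every class (medians −0.00 to −0.02), and Hmga2 (0.86), picked for this value, lies above the other genes with 3 or more matches.

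The genes that make let-7 and carry out its silencing were measured as well. Of 20 tested, 0 were called between KO and WT lines, against 0.0405% of all genes, and the median log2 fold change was 0.02. Tut4, which encodes the uridylyl transferase that LIN28A recruits to let-7 precursors, had 147 to 160 CPM in KO lines and 120 to 146 CPM in WT lines. It did not overlap between the groups, and its log2 fold change of 0.23 did not pass (edgeR adjusted p = 0.791). Tut4 was 1 of the 20 with every KO line above every WT line, against 2.39% of all genes. The nucleases Drosha (0.03) and Dicer1 (−0.04) and the effector Ago2 (0.06) were near 0. Ago1, another Argonaute, had 45.1 to 91.0 CPM in KO lines and 59.7 to 135 CPM in WT lines, and was higher in b2 than in b1 lines (log2 fold change 0.98, adjusted p = 1.23e-04). The libraries were made from poly(A) RNA, and mature microRNAs were not measured. The let-7 precursor genes accordingly had from 0 to 4 reads over all 8 libraries, and 8 of 12 had none. Among the host genes Huwe1, in whose intron Mirlet7f-2 and Mir98 lie, was at −0.14, and Wdr82, which hosts Mirlet7g, was at 0.14.

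IGF signalling, which IGF2BP proteins and HMGA2 are known to act on, had 14 genes tested and 0 called, against 0.0405% of all genes. Igfbp5, which encodes an IGF binding protein, had 36.5 CPM in KO1, 46.4 in KO9, 30.9 in KO15 and 50.2 in KO25, against 15.1 CPM in WT7, 25.2 in WT12, 24.0 in WT17 and 21.5 in WT34. The 4 KO lines exceeded all WT lines, but the log2 fold change of 0.93 did not pass (edgeR adjusted p = 0.349, and 0.110 with the suffix as a block). Igfbp2, encoding another such protein, had 273 to 362 CPM in KO lines and 260 to 273 CPM in WT lines. Its lowest KO line and highest WT line touched within rounding, and the log2 fold change of 0.24 did not pass (adjusted p = 0.797). Before rounding, 2 of the 14 (Igfbp5 and Igfbp2) had every KO line above every WT line, against 2.39% of all genes. Igf2 itself was low, at 5.06 CPM in KO lines and 6.23 CPM in WT lines. The 18 relatives of the members included genes of the HMGB and HMGN chromatin proteins and the cold shock Ybx genes. Of the 18, 0 were called, against 0.0405% of all genes, with a median of 0.02. Ybx3 had 531 to 600 CPM in KO lines and 421 to 534 CPM in WT lines (log2 fold change 0.25, adjusted p = 0.751), and the low Hmgn3 had 1.36 to 1.97 CPM in KO lines and 0.637 to 1.63 CPM in WT lines (0.82, adjusted p = 0.850). Hmgn5 had the values 39.5 to 55.7 CPM in KO lines and 55.2 to 75.5 CPM in WT lines (log2 fold change −0.37, adjusted p = 0.793).

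Across the 8 libraries the members fell into different company, as a description of libraries that share the suffix split. Igf2bp1 and Trim71 were the most alike (Pearson r = 0.944 of log2 CPM, n = 8), and Lin28a was most like Igf2bp1 (r = 0.870). Hmga2 was most like Igf2bp2 (r = 0.727) and least like Igf2bp1 (r = −0.423). Among 12486 annotated genes with a mean of at least 1 CPM, the 5 most like Hmga2 were Pik3c2b, a lipid kinase gene (r = 0.991), the homeobox gene Otx1 (r = 0.969), Nav1 (r = 0.963), the spectrin gene Sptb (r = 0.963) and Bin1 (r = 0.961). Pik3c2b had 13.2 CPM in KO1, 13.7 in KO9, 10.4 in KO15 and 10.6 in KO25, against 8.47 CPM in WT7, 7.88 in WT12, 7.63 in WT17 and 6.23 in WT34. Like Hmga2 it was highest in KO9 and lowest in WT34. Otx1 was far lower, at 1.30 to 3.06 CPM in KO lines and 0.283 to 0.801 CPM in WT lines, and Sptb stood at 96.7 to 130 CPM in KO lines and 66.1 to 76.7 CPM in WT lines. All 5 had KO lines above WT lines, as the likeness to Hmga2 makes likely. None passed in the main fit (edgeR adjusted p 0.13 to 0.44), and Sptb alone passed with the suffix as a block (adjusted p = 0.0252). Since they were picked for likeness to Hmga2, nothing is read from this.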

How the data were processed

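RNA-seq was from poly(A) RNA with a stranded kit, as single-end reads. Trim Galore 0.6.4 was used by the authors for trimming, Salmon 0.14.1 for quantification and tximport (R 4.0.2) for gene-level sums. The build given in the submitters' processing notes is mm10. The authors deposited estimated counts and, in a separate table, TPM. Estimated counts were rounded to whole numbers (27.8% of values changed). edgeR 4.0.16 (R 4.3.3) kept 17272 genes by filterByExpr, scaled by TMM, and the 4 KO lines were compared with the 4 WT lines by the quasi-likelihood test, two-sided, with Benjamini-Hochberg adjustment over all genes, called under 0.05. CPM are TMM-scaled. The suffix contrast had genotype in the model, and the interaction added their product. TPM, which allow for transcript length, were used to compare genes. Alternatives were other scalings (DESeq2 size factors, library size), leaving out each line, no filter, a minimum of 10 counts per library, DESeq2 1.42.0, limma 3.58.1 on log2(TPM + 1) and log2(TPM + 0.1), the suffix as a block, and each suffix alone. Scripts were tested on simulated data.

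Members and lists were chosen with earlier results of these data known. Named genes were the members, up to 4 genes per list with the smallest p in KO against WT, the 5 genes most like Hmga2 and Tet1. Others, such as the MYC genes, Drosha, Dicer1, Ago2, Huwe1, Wdr82, Igf2, Prdm1, Thbs1, Nr6a1, Sox17, Nhlrc3 and Fignl2, were named after their values were seen. 3′ UTRs came from GENCODE M21, of the same assembly, in which 53544 of 54281 gene IDs matched with their version.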

Additional observations from a re-analysis of the deposited data

Results flagged for a closer look

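WT34 had the lowest level of Hmga2 among the WT lines, at 33.7 CPM, far from WT7, WT12 and WT17 at 44.4 to 45.9 CPM. The gap was 0.873 of the range of the 4 WT lines. WT12 had the highest level of Lin28b among the WT lines, at 85.2 CPM, against 60.0 to 62.3 CPM in the other 3, with a gap of 0.908 of the range. Chance flags about 1 in 20 groups, and 16 groups were looked at. Without WT34 the log2 fold change of Hmga2 between KO and WT lines was 0.77, against 0.86 with all lines. Without WT12 that of Lin28b was −0.02, against −0.16 with all lines, and neither value of Lin28b passed.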

How the results depend on the processing

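The log2 fold change of Hmga2 between KO and WT lines was positive in all 20 alternatives (0.73 to 0.97). The medians of the other let-7 targets (−0.06 to 0.05) and of the genes with 3 or more seed matches (−0.05 to 0.02) with each line left out in turn stayed near 0. Genes called between KO and WT lines numbered 7, against 106 with DESeq2, 28 with the suffix as a block, 302 with DESeq2 and the suffix as a covariate, 19 in b1 alone, 2 and 3 with limma on log2(TPM + 1) and log2(TPM + 0.1), 2 with limma and the block, and 6 to 10 with each line left out in turn. Members called were 0, and 1 with DESeq2, with the block, with DESeq2 and the covariate and in b1 alone. Between suffixes 4253 genes were called, 1587 with limma on log2(TPM + 1) and 2655 (without KO9) to 4807 with each line left out, as were 2 to 5 members (5 without WT12). Signs turned only in values that passed no test. Igf2bp1 between KO and WT lines was at 0.04 in b2 alone and from −0.10 to 0.10 with each line left out, Trim71 from −0.07 to 0.24, and Lin28a was at −0.03 in b1 alone. Hmga1 between suffixes was at 0.05 with limma, and the interaction of Igf2bp2 at −0.03 with library size alone, an alternative added after the data were seen. Without a filter 168 genes were called in the interaction, against 0. The causes were not tested. The let-7 precursors, at 0 to 4 reads over all libraries, are too few for any comparison at this depth. No paired analysis was possible because the labels and the study's text do not say which of the littermate lines belong together, and KO and WT lines share no number. With each line left out, Lin28b between KO and WT lines ran from −0.27 to −0.02 (without WT12).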
